A study of Mus musculus with 25 samples.

Results

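Hepatoblastoma (HB), the most common liver cancer of childhood, was compared with liver across all genes in mice fed a standard diet. The comparison rests on 10 of the 20 libraries in the table of read counts, 5 HBs and 5 livers, taken by their labels of tissue and diet. The HBs are labelled s1758, s1799, s1800, s2138 and s2139, and the livers c1, c4, c12, c17 and c7, and values per library are given in that order throughout. The HBs arose in FVB mice after hydrodynamic injection of Sleeping Beauty transposon vectors into the tail vein. The vectors encoded Δ(90), a β-catenin with an in-frame oncogenic deletion, and YAP S127A, a form of yes-associated protein that escapes Hippo control, and the labels add a term, xloc, that they do not define. The livers came from FVB mice with no injection, so that the injection itself and the tumor are compared together with none of either. Both groups ate standard chow, and the labels give no age at sampling. HBs s1758, s2138 and s2139 and livers c1 and c4 came from males, and the other 5 libraries from females. RNA was extracted from pieces of whole tissue, in which fewer cells of a type and less RNA per cell cannot be told apart.

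β-catenin is the effector of canonical Wnt signaling. It accumulates when its destruction complex fails, and with TCF/LEF factors it turns on feedback genes such as Axin2 and, in the liver, the genes of hepatocytes around the central vein. YAP is restrained by the Hippo kinases, which phosphorylate it and keep it in the cytoplasm, and in the nucleus it works with TEAD factors. Hepatocytes divide their labor along the lobule, with urea synthesis and amino acid breakdown near the portal vein and glutamine synthesis at the central vein, and HBs resemble hepatoblasts, the fetal cells from which hepatocytes and bile duct cells descend.

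The HB libraries held 16818785 to 19308728 read counts (median 18021311) and the liver libraries 16548771 to 18348116 (median 17243051). Of 36333 genes in the table, 13830 had enough counts to be tested by edgeR's quasi-likelihood F-test, and a gene is said to have risen or fallen where its Benjamini-Hochberg adjusted p was under 0.05. In HBs 3896 genes (28.2%) were higher and 3703 (26.8%) were lower, so that a list of genes counts as unusual only against those shares. Levels are given as CPM, counts relative to the library total after TMM scaling, and differences as log2 fold changes of HB over liver with their standard error (SE). TMM takes most genes as level between groups. With scaling by total counts alone, the median log2 fold change of all genes was 0.70 against 0.02, and differences below the shift of 0.68 between these scalings depend on this choice. No sequencing lane held libraries of both tissues, so lane and tissue cannot be told apart. For Ccnd3 and Bysl, Airn and Igf2r, Itgb4 and Galk1, Nop56 and Idh3b, Mxd3 and Prelid1, Slc16a3 and Csnk1d, Gins2 and Gse1, Masp2 and Tardbp, Sds and Plbd2, Car14 and Aph1a, Col4a4 and Col4a3, and Csad and Zfp740, which overlap on opposite strands, reads of the partners cannot be told apart where strand was not used. The study's methods name a directional library kit, which keeps strand, but the sources used here do not say whether the counting used it. Levels of Xist and Ddx3y matched the labels of sex in every library.

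The size of the differences was not even between directions. Among the 3896 genes that rose, 2366 did so by over 2-fold, 1201 by over 4-fold and 348 by over 16-fold, with a median log2 fold change of 1.27. Among the 3703 that fell, 1589 fell by over 2-fold, 516 by over 4-fold and 74 by over 16-fold, with a median of -0.88. A test against a 2-fold change (TREAT) called 1556 genes higher (11.3%) and 833 lower (6.02%). All 5 HBs lay above all 5 livers for 2962 genes (21.4%), and all 5 lay below for 2776 (20.1%).

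Yap1 and Ctnnb1, the genes the vectors carry, were the first check of the labels. Yap1 (chromosome 9, 7931999 to 8004596, GRCm38.p6) was at 1310, 4837, 3808, 2154 and 4238 CPM in HBs, against 119, 97.2, 88.7, 104 and 99.6 CPM in livers. This was a 32.2-fold rise (log2 5.01 ± 0.36 SE, adjusted p = 1.3e-06), with HB s1758 the lowest of the HBs and still far above every liver. Ctnnb1, which encodes β-catenin (chromosome 9, 120933400 to 120960507), was at 859, 767, 802, 432 and 592 CPM in HBs, against 363, 379, 339, 300 and 313 CPM in livers, a 2.04-fold rise (adjusted p = 7.4e-04). Per unit of length, the authors' TPM averaged 2207 for Yap1 and 544 for Ctnnb1 in HBs, and 36.9 and 142 in livers. The counts do not say which of these reads came from the vectors and which from the mouse's own genes.

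Promoter sequence is shown for 3 genes whose products are read as outputs of these factors, as RefSeq gives it for GRCm38.p6, 5′ to 3′ on the gene's strand. Each window runs from 250 bases before the transcription start to 50 after it, and capitals mark GGAATG or its reverse complement CATTCC, the letters that TEAD factors bind, or CTTTGAA and CTTTGAT, the core letters that TCF/LEF factors bind, on either strand. Ankrd1 encodes a nuclear and sarcomeric ankyrin repeat protein, Cyr61 a secreted matrix-associated protein, and Sp5 a transcription factor.
Ankrd1, chr19:36119795-36120094, minus strand: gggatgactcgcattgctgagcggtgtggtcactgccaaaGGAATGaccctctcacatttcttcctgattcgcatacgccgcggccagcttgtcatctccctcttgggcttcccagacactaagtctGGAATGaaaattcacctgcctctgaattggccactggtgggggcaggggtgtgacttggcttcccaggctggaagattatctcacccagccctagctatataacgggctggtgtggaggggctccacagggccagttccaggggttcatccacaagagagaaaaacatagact
Cyr61, chr3:145649936-145650235, minus strand: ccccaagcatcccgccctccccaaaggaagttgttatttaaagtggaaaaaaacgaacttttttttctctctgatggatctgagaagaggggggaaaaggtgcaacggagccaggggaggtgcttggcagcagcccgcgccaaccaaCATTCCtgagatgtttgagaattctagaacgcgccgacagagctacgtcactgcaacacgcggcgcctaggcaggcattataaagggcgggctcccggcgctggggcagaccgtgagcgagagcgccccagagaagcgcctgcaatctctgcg
Sp5, chr2:70474673-70474972, plus strand: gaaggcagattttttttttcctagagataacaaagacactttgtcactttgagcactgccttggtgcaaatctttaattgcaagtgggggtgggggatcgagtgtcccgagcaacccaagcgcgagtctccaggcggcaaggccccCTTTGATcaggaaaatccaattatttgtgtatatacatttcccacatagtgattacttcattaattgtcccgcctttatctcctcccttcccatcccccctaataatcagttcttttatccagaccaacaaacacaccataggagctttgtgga

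The window of Ankrd1 held GGAATG at -210 and -123 from the start, that of Cyr61 the reverse complement at -103, and that of Sp5 CTTTGAT at -104. GGAATG stood on either strand in 14.7% of all 32851 promoter windows, in 14.8% of the 11007 tested genes that were matched to a window, in 16.1% of those higher and in 14.6% of those lower in HBs. Of the 18 YAP/TEAD genes with a window, 8 held it. CTTTGAA or CTTTGAT stood in 8.65% of all windows, in 6.77% of genes higher and 8.50% of genes lower in HBs, and in 3 of the 10 Wnt list genes with a window. These are matches of letters and say nothing of binding.

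The Wnt list held 25 targets and feedback genes of β-catenin, of which 19 were tested. In HBs 13 rose, none fell, and the median log2 fold change was 1.61. Axin2, a scaffold of the destruction complex that β-catenin itself turns on, was at 103, 149, 212, 74.9 and 97.8 CPM in HBs, against 11.1, 11.6, 9.48, 9.75 and 8.29 CPM in livers (12.7-fold, log2 3.67 ± 0.27 SE, adjusted p = 1.6e-06). Lgr5, the R-spondin receptor of epithelial stem cells, was at 49.4, 65.7, 67.4, 31.5 and 48.4 CPM in HBs, against 8.97, 3.75, 5.64, 2.49 and 4.24 CPM in livers. Tnfrsf19, a receptor of the tumor necrosis factor family, rose 24.5-fold, Tbx3, a T-box repressor, 3.07-fold and Sp5 by 3.17 on the log2 scale, and for each of these genes every HB lay above every liver. Nkd1, an intracellular antagonist of Wnt signaling, was the exception in shape, at 7.78, 97.2, 111, 28.9 and 34.97 CPM in HBs, against 8.19, 7.24, 8.08, 9.60 and 11.9 CPM in livers. It rose 6.20-fold on average (adjusted p = 0.0024), but HB s1758 was within the range of the livers. Rnf43, Znrf3, Tcf7, Myc, Sox9, Bambi and Nkd2 also rose, while Notum, Ccnd1, Prox1, Lect2, Zbed3 and Kremen1 did not pass the test.

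The pericentral genes, which β-catenin maintains in normal liver, did not follow the feedback genes as a group. Of 22 tested, 6 rose and 8 fell, beside 28.2% higher and 26.8% lower of all genes tested. The median of -0.39 became 0.31 with total counts. Glul, glutamine synthetase, was at 868, 3521, 5218, 1980 and 2135 CPM in HBs, against 861, 714, 706, 738 and 760 CPM in livers (3.63-fold, adjusted p = 0.0016), with HB s1758 next to the highest liver. Slc13a3, a dicarboxylate transporter, rose 4.94-fold. Cyp2c50, a pericentral cytochrome P450, fell to 45.3, 38.9, 55.1, 111 and 74.5 CPM in HBs, against 424, 372, 727, 548 and 363 CPM in livers, and the carboxylesterase Ces1d fell 3.65-fold. The other members that rose were Slc1a2, Rhbg, Gulo and Axin2, and those that fell included Cyp1a2, Oat, Cyp27a1 and Ces3a.

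Of 26 YAP/TEAD targets, 24 were tested, 17 rose and 1 fell, with a median of 2.12, and all 17 that rose had every HB above every liver. Ankrd1 was at 130, 123, 193, 64.7 and 104 CPM in HBs, against 0.312, 0.436, 0.279, 0.427 and 0.190 CPM in livers (373-fold, log2 8.54 ± 0.37 SE, adjusted p = 4.6e-08). Ctgf, a matricellular growth factor, was at 67.0, 91.7, 112, 47.5 and 46.7 CPM in HBs, against 2.34, 5.24, 5.57, 4.84 and 4.998 CPM in livers. HB s2138 was the lowest or next to the lowest HB for both genes. Cyr61 rose 6.04-fold, Myof, a membrane repair protein, 17.2-fold, Ptpn14, a phosphatase that binds YAP, 14.98-fold, and Arhgef17, a guanine nucleotide exchange factor, 7.11-fold. Dock5, an exchange factor for Rac, was the member that fell (-0.57), and with total counts its log2 fold change was 0.13. Tead1, Tead2 and the Hippo components Lats2, Ajuba and Amotl2 were among the genes that rose.

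Notch signaling steers hepatoblasts toward bile duct fate. Of its 16 receptors, ligands and targets, 9 rose and 1 fell (median 0.67), and with a library left out 6 to 8 rose. In males only 6 rose, and with all 20 libraries in 1 fit 4 rose and 2 fell. Jag1, the ligand whose loss causes bile duct paucity in humans, was at 71.9, 55.1, 116, 39.4 and 52.0 CPM in HBs, against 7.33, 8.55, 6.34, 5.26 and 6.26 CPM in livers, and Jag2 rose 13.3-fold from a low level. Sox9, a duct transcription factor, rose 7.73-fold and the receptor Notch1 1.68-fold, in every HB above every liver. Hes6, which counters Notch effectors, fell 3.12-fold. The call of the receptor Notch3 was lost without any 1 of s1799, s1800, c1, c4, c12 and c17.

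**Figure D1:**
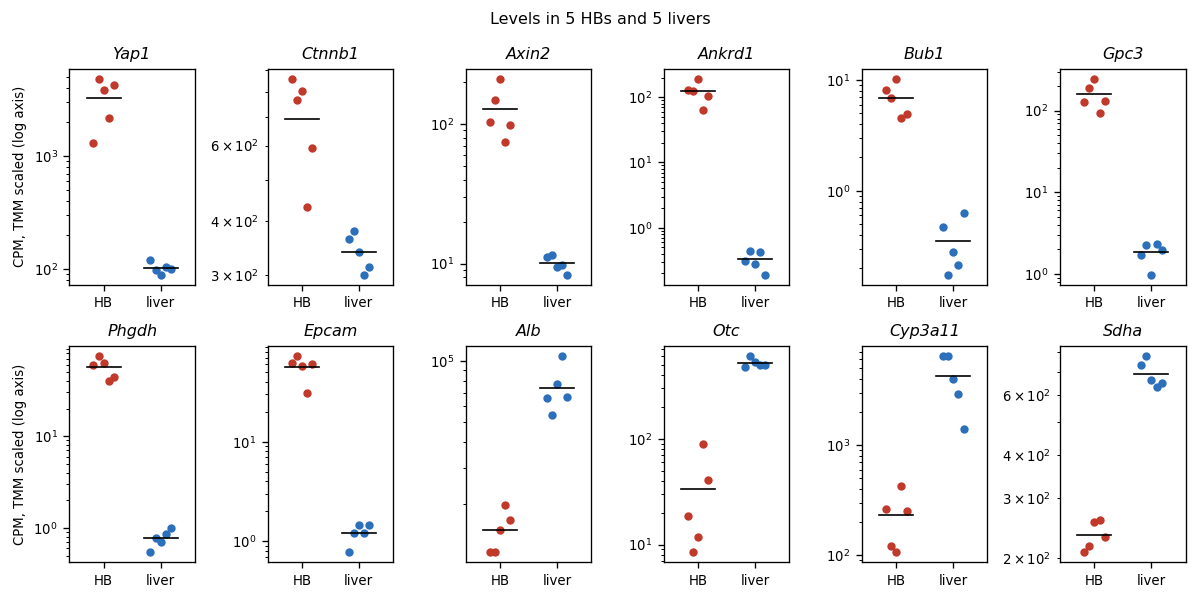
Levels of 12 genes in 5 HBs (left, red) and 5 livers (right, blue), in CPM on a log axis whose range differs between panels; each point is a library and the line is the mean. Points of HBs and livers do not overlap in any panel, with HBs above livers for the first 8 genes (Yap1 to Epcam) and below for Alb, Otc, Cyp3a11 and Sdha.

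Genes of mitosis rose almost without exception. Of 43 tested, 42 rose, none fell, every HB lay above every liver for 42 and the median log2 fold change was 3.44. Bub1, a kinase of the spindle checkpoint, was at 8.14, 6.88, 10.3, 4.51 and 4.91 CPM in HBs, against 0.468, 0.175, 0.279, 0.213 and 0.633 CPM in livers (18.9-fold, adjusted p = 5.3e-06). Ndc80, a kinetochore protein, rose 17.9-fold, Anln, a cytokinesis scaffold, 12.9-fold and Ska1, which links kinetochores to microtubules, 21.2-fold. The mean log2 CPM of the list was 4.11, 4.21, 4.44, 3.53 and 3.32 in HBs, against 1.79, 0.19, 0.71, 0.92 and 1.53 in livers, so that HBs s2138 and s2139 were the lowest HBs. Spc24 was the member that did not pass the test.

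DNA replication genes rose less and less evenly. Of 44 tested, 27 rose and 3 fell, with a median of 1.04. With a library left out 24 to 35 rose, the most without liver c7, and with sex as a covariate 37 rose. Lig1, the replicative DNA ligase, was at 30.6, 63.2, 56.2, 29.7 and 32.8 CPM in HBs, against 6.08, 2.79, 6.62, 12.2 and 12.1 CPM in livers (5.30-fold). Gins2, of the replicative helicase, rose 6.05-fold, Rrm2, a subunit of ribonucleotide reductase, 3.90-fold and Rfc3, a clamp loader, 2.41-fold. Mcm10 and Tk1 were among the members that fell. Mcm10, a replication initiation factor, was at 6.55, 8.59, 9.10, 30.5 and 16.5 CPM in HBs, against 136, 170, 73.0, 52.9 and 53.1 CPM in livers, and male livers were higher than female livers.

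On the list of cyclins, CDK inhibitors and p53 targets, 14 of 26 genes rose, 1 fell and 11 did not pass the test. Cdkn1a, the p21 inhibitor, was at 102, 84.7, 52.0, 42.1 and 68.2 CPM in HBs, against 3.74, 0.524, 2.30, 3.56 and 3.23 CPM in livers (25.8-fold, adjusted p = 4.2e-06). Phlda3, a p53 target that restrains Akt, rose 17.5-fold, Cdkn2b, an inhibitor of Cdk4 and Cdk6, 11.3-fold, and Cdk6 itself 4.82-fold. Ccnd3, a D-type cyclin whose gene overlaps Bysl on the other strand, was at -0.57, and at 0.11 with total counts. Ccnd1, a textbook target of β-catenin, did not pass the test.

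The Myc network was mixed. Of 13 genes, 4 rose and 4 fell. Myc was at 19.01, 27.6, 28.2, 21.0 and 18.5 CPM in HBs, against 3.43, 5.67, 6.20, 15.7 and 7.91 CPM in livers, a 2.93-fold rise with liver c17 close to the lowest HB. The Max partner Mxd3 rose 20.5-fold. Mxi1, a Myc antagonist, and Mlx, the partner of the glucose-sensing factor ChREBP, fell 1.80-fold and 1.90-fold. Of 35 ribosome biogenesis factors, 9 rose and 3 fell, with a median of -0.06 that was 0.64 with total counts, so that this group did not rise as a whole. The nucleolar chaperone Npm1 rose 2.34-fold and Nop56, of the RNA methylation complex, 1.73-fold, while Bysl had a log2 fold change of -0.60, and 0.08 with total counts.

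**Figure D2:**
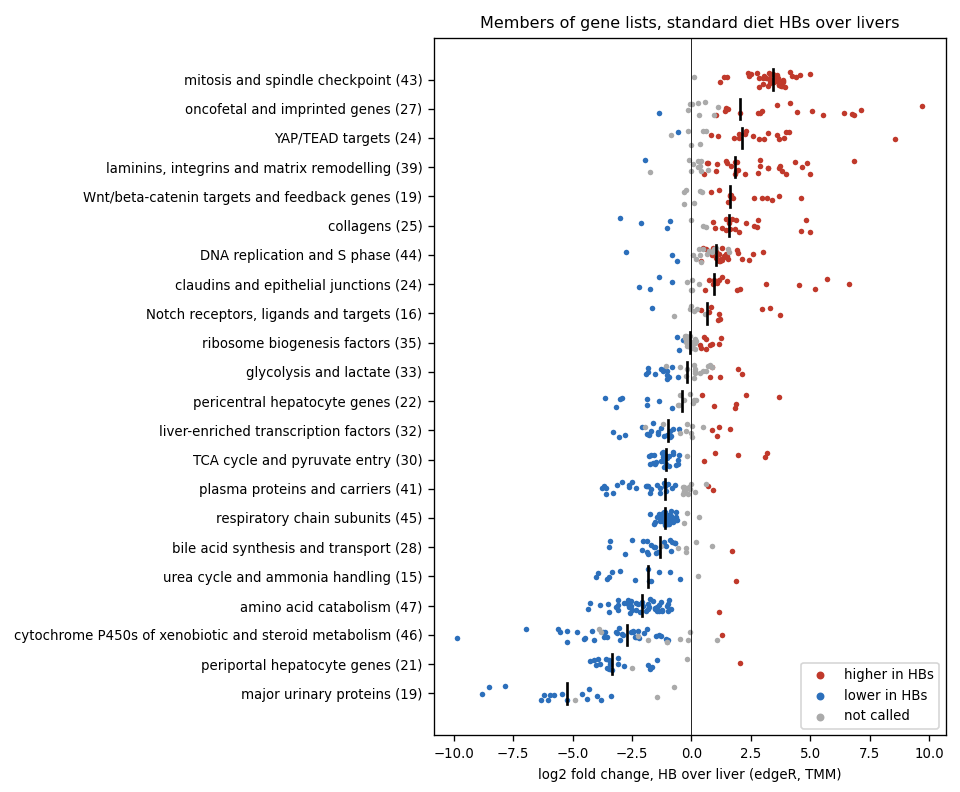
log2 fold change (HB over liver, x axis) of each tested member of 22 gene lists (rows, number tested in parentheses); red points rose, blue points fell, grey points did not pass the test, and the black bar is the list's median. Medians run from 3.44 for mitosis to -5.21 for the major urinary proteins.

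Many regulators of the hepatocyte program were lower. Of 32 liver-enriched transcription factors, 19 fell and 4 rose (median -0.97), and for 18 of the 19 that fell every HB lay below every liver. With total counts 12 fell and 9 rose, with a median of -0.31. Hnf4a, the master regulator of hepatocyte genes, was at 417, 405, 398, 569 and 614 CPM in HBs, against 983, 975, 893, 1024 and 969 CPM in livers (log2 -1.01 ± 0.16 SE, adjusted p = 2.6e-04). Nr0b2, the bile acid-induced repressor SHP, fell 6.98-fold, Esrrg, an orphan receptor of energy metabolism, 9.96-fold and Gata4 2.62-fold. Foxa1 rose 2.08-fold and Gata6 1.84-fold, and Cebpd also rose. Gata4 and Gata6, paralogs of 1 family, thus moved in opposite directions.

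Secreted products fell with many exceptions. Of 41 plasma proteins and carriers, 26 fell and 2 rose (median -1.12). Alb, serum albumin, was at 11655, 11616, 14866, 19757 and 16640 CPM in HBs, against 65938, 54513, 77345, 105904 and 66414 CPM in livers (4.97-fold lower, adjusted p = 5.7e-05). Ttr, the thyroxine carrier transthyretin, fell 5.71-fold, F11, a coagulation factor, 7.46-fold and Serpina1e, of the α1-antitrypsin cluster, 13.6-fold, though reads of that cluster can be split among near-identical copies. Apoa1, Trf and Fgb, all high in both tissues, did not pass the test, with log2 fold changes of -0.01, -0.15 and -0.06, and 0.67, 0.53 and 0.62 with total counts. Of 26 complement genes, 11 fell and 1 rose, among them C1ra (2.12-fold lower), Masp2, a protease of the lectin pathway (3.68-fold lower), and C2 (1.48-fold higher), and C3, the most abundant of them, differed by 0.17 on the log2 scale (adjusted p = 0.52). With total counts 7 complement genes were lower and 7 higher, and the list's median of -0.69 became -0.03.

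Acute phase genes moved both ways, with 7 of 26 higher and 5 lower, shares near or below those of all genes (28.2% and 26.8%). Their direction differed between the fits of each sex alone. In males only 8 were higher and 3 lower, with a median log2 fold change of 0.60. In females only 5 were higher and 13 lower, with a median of -0.61. The mean log2 CPM of the list was 6.90, 6.54, 6.31, 8.28 and 7.43 in HBs, with male s1758 below both male livers (7.30 and 6.98). With HBs s1758, s1799 and s1800 only, a choice made after these values were seen, the median was -0.47. In that fit 7 were higher and 11 lower. Lcn2, a siderophore-binding protein of inflamed liver, was at 383, 264, 173, 232 and 200 CPM in HBs, against 3.04, 0.611, 2.93, 9.75 and 5.69 CPM in livers (56.3-fold, adjusted p = 1.1e-05). Cd14, a co-receptor for lipopolysaccharide, rose 8.59-fold, and haptoglobin (Hp) and ceruloplasmin (Cp) 1.90-fold and 1.63-fold. Hamp, hepcidin, the hormone of iron balance, fell 10.98-fold, and Serpina3m 13.9-fold. HB s2138 had the highest Serpina3m of the HBs, at 96.6 CPM against 6.69 to 32.4 in the others, and without it the log2 fold change was -4.87 in place of -3.80, and 9 members of the list were lower in place of 5.

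Periportal functions were among the most reduced. Of 21 periportal genes, 18 fell and 1 rose, with a median of -3.33, and -4.34 without s2138. In males only 10 fell, with a median of -2.42, and in females only 19, with a median of -5.62. The male HBs were not alike, with a mean log2 CPM of the list of 4.12, 4.19, 4.09, 7.21 and 6.07 in HBs. Male s1758 thus lay with the females, and with s1758, s1799 and s1800 as the only HBs 19 fell (median -5.32). Cps1, which starts the urea cycle (chromosome 1, 67122426 to 67231267), was at 203, 56.0, 110, 1270 and 582 CPM in HBs, against 4027, 6692, 6497, 4270 and 4315 CPM in livers (11.6-fold lower, adjusted p = 0.0019). Otc, the next enzyme of the cycle, was at 18.6, 8.47, 11.9, 88.6 and 41.1 CPM in HBs, against 477, 609, 527, 494 and 496 CPM in livers. HBs s2138 and s2139 held the highest values for both genes, and without s2138 the log2 fold changes were -4.42 in place of -3.54 for Cps1 and -4.68 in place of -3.95 for Otc. Ftcd, of histidine breakdown, and Aldh1b1, a mitochondrial aldehyde dehydrogenase, had the same shape, with -3.09 and -3.404, and -3.71 and -4.17 without s2138. The exception was Cdh1, E-cadherin, a junction protein that is denser on periportal hepatocytes, which rose 4.08-fold in every HB above every liver.

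Genes of nitrogen metabolism were mostly lower. Of 15 genes of the urea cycle and ammonia handling, 13 fell, Glul rose and 1 did not pass the test. In males only 7 fell, and with s1758, s1799 and s1800 as the only HBs 13 fell. Slc25a15, the ornithine carrier, fell 5.19-fold and Got2, mitochondrial aspartate aminotransferase, 2.61-fold. Of 47 genes of amino acid catabolism, 46 fell, a larger share than in any other list here (median -2.10), and for 44 every HB lay below every liver. Hibadh, of valine breakdown, was at 56.8, 51.2, 63.2, 106 and 90.5 CPM in HBs, against 386, 411, 472, 463 and 447 CPM in livers (5.93-fold lower), Ivd, of leucine breakdown, fell 4.43-fold, Fah, the last enzyme of tyrosine breakdown, 3.60-fold and Tat, the first, 5.75-fold. Csad, of taurine synthesis, was the member called higher, at 462, 709, 577, 490 and 689 CPM in HBs, against 351, 447, 214, 53.6 and 255 CPM in livers. Its call (adjusted p = 0.035) was lost without any 1 of s1799, s1800, s2139, c12 and c7.

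Detoxification and bile acid genes followed. Of 46 cytochrome P450s and their reductase, 35 fell and 1 rose (median -2.72), and in males only 24 fell (median -1.68). Cyp3a11, a main drug-metabolizing enzyme, was at 262, 122, 107, 423 and 254 CPM in HBs, against 6469, 6407, 3970, 2913 and 1412 CPM in livers (18.1-fold lower, adjusted p = 5.1e-05). Cyp2a12, Cyp2j5 and Cyp2d22 fell 4.70-fold, 5.46-fold and 4.00-fold, with all HBs below all livers, whereas Cyp2e1 (log2 -0.47, adjusted p = 0.17) did not pass the test. Cyp1b1, an extrahepatic family member, rose 2.46-fold. Of 28 genes of bile acid synthesis and transport, 21 fell and 1 rose, with the export pump Abcb11 3.66-fold, the synthesis enzyme Hsd3b7 3.58-fold and the basolateral pump Abcc3 4.23-fold lower, and Cyp39a1, an oxysterol hydroxylase, 3.26-fold higher.

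The major urinary proteins (Mups), pheromone carriers that male liver secretes in bulk, had the lowest median of the lists plotted by log2 fold change. Of 19 tested members, 16 fell, none rose and the median was -5.21. It was -6.64 without s2138 and -4.28 without c4, and without c4 11 members fell. Mup1 was at 324, 8.82, 1.23, 3370 and 975 CPM in HBs, against 53758, 81878, 2015, 264 and 879 CPM in livers, and did not pass the test (log2 -4.89 ± 2.01 SE, adjusted p = 0.058), since female livers lay among the HBs. Mup19 was at 0.273, 0, 0.238, 5.40 and 1.03 CPM in HBs, against 267, 1983, 152, 66.7 and 573 CPM in livers (log2 -8.80 ± 1.47 SE), and had -10.64 without s2138 and -7.62 without c4. Mup2 fell by 6.31 on the log2 scale, and by 8.21 without s2138. The log2 fold change of Mup10 was -4.31, and -5.86 without s2138. Mup genes are near-identical copies, so reads may be shared among them. Their combined share of all counts was 0.0158% to 1.42% in HBs, against 0.392% to 17.2% in livers.

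Genes of mitochondrial energy metabolism were lower almost throughout. Of 45 nuclear-encoded respiratory chain subunits, 42 fell and none rose (median -1.13), and 39 had every HB below every liver. Ndufs1, of complex I, was at 53.4, 46.6, 62.8, 52.4 and 56.1 CPM in HBs, against 159, 194, 162, 137 and 141 CPM in livers (2.93-fold lower, adjusted p = 2.9e-06), Ndufv1 fell 2.41-fold and Atp5a1, of ATP synthase, 2.59-fold. Genes of the mitochondrial genome were listed at 0 in every library and could not be compared. Of 30 genes of the TCA cycle and pyruvate entry, 24 fell and 5 rose (median -1.06). Sdha, which serves both the cycle and complex II, was at 208, 218, 254, 258 and 231 CPM in HBs, against 734, 782, 665, 635 and 653 CPM in livers (2.96-fold lower, adjusted p = 2.3e-06), and Sucla2 and Suclg1, subunits of succinyl-CoA synthetase, fell 3.10-fold and 2.77-fold. The 5 members that rose were Pdk3, a kinase that shuts pyruvate dehydrogenase (8.55-fold), Pdp1, a phosphatase that opens it (3.91-fold), Pdk4, Idh2 and Idh3a, while the phosphatase Pdp2 fell 2.86-fold.

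Glucose handling did not rise as a whole. Of 33 genes of glycolysis and lactate, 13 fell and 5 rose, with a median of -0.17 that was 0.51 with total counts, and 8 rose without s1758. Pklr, the liver pyruvate kinase, was at 65.3, 60.4, 70.4, 97.8 and 84.8 CPM in HBs, against 243, 214, 368, 259 and 257 CPM in livers (3.54-fold lower), and Pgk1, Tpi1 and Pgam1 fell 2.40-fold, 2.31-fold and 2.02-fold. Pfkfb3, which makes the activator of phosphofructokinase, rose 4.37-fold (log2 2.13, and 2.77 without c4) and Slc16a3, a lactate exporter that overlaps Csnk1d on the other strand, 3.89-fold. Of 18 genes of gluconeogenesis and glycogen, 11 fell and 4 rose. The phosphorylase Pygl, the glycogen-targeting subunit Ppp1r3c and the glucose transporter Slc2a2 fell 3.45-fold, 4.41-fold and 2.79-fold. Pck2, the mitochondrial PEP carboxykinase, rose 6.35-fold and glycogenin (Gyg) 3.01-fold.

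Serine synthesis stood out in the other direction. Phgdh, the first enzyme of serine synthesis from glucose (chromosome 3, 98313171 to 98339969), was at 59.2, 75.1, 63.2, 40.2 and 44.5 CPM in HBs, against 0.546, 0.785, 0.697, 0.854 and 1.01 CPM in livers (71.3-fold, log2 6.16 ± 0.24 SE, adjusted p = 3.5e-08). Psat1, the next enzyme, was at 19.6, 25.5, 29.99, 19.2 and 15.8 CPM in HBs, against 0.936, 0.960, 1.18, 0.569 and 1.14 CPM in livers (22.8-fold), and Psph, the last, also rose. Across the list of serine, folate and nucleotide synthesis, 12 of 29 rose and 10 fell, with a median of -0.14 (0.55 with total counts), and the groups did not overlap for all 12 that rose and for 9 of the 10 that fell. Shmt2 and Mthfd1, of folate metabolism, fell 3.68-fold and 2.70-fold. Within mitochondrial folate metabolism Mthfd2, Mthfd1l and Aldh1l2 rose where Shmt2 fell.

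Of 32 genes of cholesterol synthesis and lipogenesis, 15 fell and 2 rose, with a median of -0.52 (0.17 with total counts). Acly, which makes cytosolic acetyl-CoA, Me1, malic enzyme, and the elongase Elovl5 fell 3.25-fold, 4.63-fold and 3.53-fold, and Srebf1, the regulator of lipogenesis, 3.64-fold. Srebf2, the regulator of cholesterol synthesis, rose 1.41-fold. Scd2, a desaturase of fetal liver, was at 128, 14.4, 14.1, 22.9 and 22.4 CPM in HBs, against 8.42, 9.77, 10.9, 11.3 and 20.2 CPM in livers. Its call (log2 1.73, adjusted p = 0.031) rested on HB s1758, without which the log2 fold change was 0.61, and was also lost without any 1 of c1, c4, c12 and c17.

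Of 32 antioxidant genes and NRF2 targets, 17 fell and 5 rose, with a median of -0.55 (0.17 with total counts). Catalase (Cat) was at 678, 670, 825, 899 and 882 CPM in HBs, against 4020, 3971, 3079, 2518 and 2472 CPM in livers (4.06-fold lower), and Sod2 and Gstm4 fell 3.15-fold and 3.50-fold. Slc7a11, the cystine transporter, was at 1.46, 1.90, 3.77, 1.53 and 2.06 CPM in HBs, against 0, 0.175, 0.139, 0 and 0.0633 CPM in livers, and Gpx3, an extracellular peroxidase, rose 3.98-fold. Of 19 hypoxia genes 5 rose and 5 fell, with a median of -0.24 (0.44 with total counts).

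Clock genes differed among the HBs. Of 20 tested, 9 fell and 2 rose. Npas2 was at 16.6, 14.7, 16.7, 1.29 and 1.54 CPM in HBs, against 0.312, 0.262, 0.139, 0.427 and 0.253 CPM in livers, and Arntl, which encodes Bmal1, at 21.2, 25.8, 29.3, 5.45 and 6.26 CPM in HBs, against 1.87, 2.27, 2.72, 3.41 and 3.29 CPM in livers. For both activators HBs s2138 and s2139 lay nearer to the livers than to the other HBs. Hlf and Noct, which follow the clock, fell 4.17-fold and 5.96-fold and Bhlhe40, a repressor in it, 2.83-fold. The labels give no hour of sampling, and its part in these genes was not tested.

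Genes of fetal liver were mostly higher. Of 36 oncofetal and imprinted genes 27 were tested, 18 rose and 1 fell, with a median of 2.04. Gpc3, a heparan sulfate proteoglycan used as a marker of human HB (chromosome X, 52272426 to 52613974), was at 128, 191, 247, 94.1 and 132 CPM in HBs, against 1.72, 2.27, 0.976, 2.35 and 1.96 CPM in livers (85.5-fold, adjusted p = 1.6e-07). H19, an imprinted long RNA, was at 47.9, 87.6, 71.5, 50.7 and 117 CPM in HBs, against 1.09, 0.436, 0, 0.711 and 0.443 CPM in livers. Afp, α-fetoprotein, rose 34.0-fold but only to 4.91, 20.3, 14.3, 13.8 and 11.1 CPM in HBs, against 0.127 to 0.698 CPM in livers, far below albumin. Igf2, the fetal growth factor that neighbors H19, rose 17.9-fold, with s1758 lowest at 4.78 CPM, and Airn, which overlaps Igf2r on the other strand, 115-fold. Ndn, an imprinted growth suppressor, fell 2.57-fold.

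The growth hormone axis was mixed, with 10 of 23 genes higher and 9 lower. Ghr, the growth hormone receptor, was at 95.1, 66.9, 77.4, 229 and 159 CPM in HBs, against 865, 962, 702, 545 and 538 CPM in livers (5.76-fold lower), and Igfals, the acid-labile subunit that carries Igf1 in blood, fell 7.99-fold. Igfbp1, a binding protein of fasted and fetal liver, was at 141, 250, 137, 134 and 230 CPM in HBs, against 5.77, 2.01, 1.81, 4.70 and 1.96 CPM in livers (54.9-fold). Igf2bp1, an oncofetal RNA-binding protein, rose 109-fold. Igf1 and the prolactin receptor Prlr also fell, and Igf2bp3 also rose.

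Epithelial markers, those of ducts among them, were mostly higher in HBs. Of 15 tested markers of cholangiocytes and progenitors, 13 rose and 1 fell, with a median of 2.83, and their summed level was 648 to 1338 CPM in HBs, against 325 to 398 CPM in livers. Epcam was at 62.1, 72.9, 58.2, 30.7 and 60.1 CPM in HBs, against 0.780, 1.22, 1.46, 1.21 and 1.46 CPM in livers (45.8-fold, adjusted p = 9e-08). Sox4, a progenitor factor, rose 38.6-fold and Spp1, osteopontin, 15.6-fold, while Aqp1, a water channel of ducts and endothelium, fell 3.34-fold. Cftr, Muc1 and Sctr, which mark mature ducts, had too few counts to be tested. Of 15 markers of pancreatic and gut epithelium only 6 had enough counts to be tested, of which 5 rose and 1 fell, with a median of 2.63. The summed level of that list was not higher, at 26.3 to 44.3 CPM in HBs, against 35.4 to 68.3 CPM in livers. Of 15 keratins 8 had enough counts to be tested, of which 6 rose. Members near 0 in livers could enter the test by their counts in HBs alone, which favors rises among those tested. The simple-epithelial pair Krt8 and Krt18 rose 3.47-fold and 4.12-fold, while Krt7 was at 5.32, 58.3, 41.7, 12.5 and 28.7 CPM in HBs, against 0.234 to 1.14 CPM in livers, and Krt4, a keratin of layered epithelia, at 18.7, 108, 159, 34.3 and 46.9 CPM in HBs, against 0 to 0.873 CPM in livers (log2 7.99, and 8.79 without c4). Both were lowest in s1758. Krt10 was the member that fell (-0.63), and with total counts it was at 0.04.

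Junctions changed their makeup. Of 24 tested, 15 rose and 4 fell. The claudins Cldn4 and Cldn7 rose 51.6-fold and 36.8-fold, while Gjb1 and Gjb2, the gap junction proteins of hepatocytes, fell 2.58-fold and 3.30-fold. Of 39 laminins, integrins and remodelling genes, 28 rose and 1 fell, with a median of 1.81. Lama5, a laminin of epithelial basement membrane, was at 116, 122, 122, 87.7 and 108 CPM in HBs, against 7.18, 3.75, 4.81, 4.55 and 6.64 CPM in livers (20.6-fold, adjusted p = 5.6e-08). Lamb2, another laminin, and Itgb4, of a laminin receptor, rose 12.8-fold and 31.5-fold, and Lama1 fell 3.85-fold. Of 34 collagens 25 were tested, 18 rose and 4 fell. In males only 10 rose, and with all 20 libraries in 1 fit 10 rose. The summed level of the list was not higher, at 1479 to 2532 CPM in HBs, against 1920 to 2430 CPM in livers. Col4a5, of the specialized collagen IV network, was at 63.6, 66.4, 80.1, 45.9 and 51.9 CPM in HBs, against 1.33, 1.66, 3.48, 1.57 and 1.64 CPM in livers, and Col4a4 rose 28.1-fold (log2 4.82, and 5.85 without c17). Col18a1, an abundant collagen of hepatocytes and vessels, fell 1.85-fold and Col13a1 8.12-fold, while Col16a1 rose 6.96-fold.

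Markers of other cells were read as sums over lists. Endothelial and sinusoidal markers summed to 254 to 551 CPM in HBs, against 757 to 1044 CPM in livers, and 15 of 23 fell and 2 rose. Dnase1l3, of sinusoidal endothelium, was at 10.0, 24.9, 17.2, 23.96 and 16.1 CPM in HBs, against 94.8, 106, 137, 126 and 130 CPM in livers, and Oit3, Tek and Wnt2, the endothelial Wnt ligand of the liver, fell 4.90-fold, 3.77-fold and 6.48-fold. The calls of Emcn and Esam, which rose, were each lost without any 1 of s1799, s1800, c1 and c4, and that of Emcn also without c17 or c7. Of 17 stellate cell and fibroblast markers, 7 rose and 6 fell (364 to 851 CPM in HBs, against 451 to 600 in livers), with Lum 3.11-fold higher, Dcn 2.18-fold lower and Lrat and Ecm1, of quiescent stellate cells, 3.90-fold and 7.35-fold lower. The median of that list (-0.11) was 0.56 with total counts. With all 20 libraries in 1 fit only 1 of its members rose and 2 fell.

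Macrophage markers held their sum, while some members rose and others fell. They summed to 493.01 to 1337 CPM in HBs, against 485 to 1117 CPM in livers. Of 19 tested 7 rose, 3 fell and 9 did not pass the test, beside 28.2% higher and 26.8% lower of all genes tested. With total counts 1 fell, as with all 20 libraries in 1 fit, and by TREAT none did. With DESeq2 6 fell. Without s2138 7 fell, and in females only 7, against 1 in males only. Cx3cr1, of recruited monocytes and macrophages, was at 36.8, 77.2, 48.1, 34.9 and 19.4 CPM in HBs, against 4.13, 3.75, 1.88, 3.06 and 1.27 CPM in livers, Trem2 rose 17.3-fold and Ccr2 10.2-fold. Vsig4 and Mrc1, of resident Kupffer cells and sinusoids, fell 2.37-fold and 2.73-fold. Most members of the list, which also holds the Kupffer cell markers Clec4f, Timd4, Cd5l, Marco and Cd163, did not fall. On the list of antigen presentation and interferon-stimulated genes 12 of 35 were higher, a share near the 28.2% of all genes, and 3 lower, with Ifit2 11.4-fold and Oas1a 6.78-fold higher and B2m 1.71-fold lower. Its median log2 fold change was 0.54, and -0.02 without s1799, and 22 members were higher in males only and 11 in females only. Neutrophil markers were near the limit of detection, at 6.005 to 21.8 CPM in sum in HBs, against 2.27 to 5.98 CPM in livers, and most of that list, with Ly6g and Elane, had too few counts to be tested. Of 8 tested T and NK cell markers 1 (Cd8a) rose, and no B cell marker passed the test.

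The hepatocyte markers summed to 33009 to 57419 CPM in HBs, against 111523 to 162736 CPM in livers, and 9 of 14 fell. The mean log2 CPM of this list was 9.79, 9.39, 9.44, 10.65 and 10.39 in HBs, against 11.81, 11.88, 11.80, 11.66 and 11.53 in livers, with s2138 and s2139 the highest HBs, as for Cps1 and Otc. The part of residual liver in these libraries was not tested.

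The largest rises were those of genes nearly silent in liver. Among genes with non-overlapping groups and at least 10 CPM on average in HBs, Hs3st2, a heparan sulfate sulfotransferase, was at 4.87, 25.8, 36.5, 5.15 and 5.94 CPM in HBs and had no count in any liver. With a floor of 3 counts over the livers this was at least 384-fold higher. Pla2g5, a secreted phospholipase, had 3558 counts in HBs and 1 in livers, a ratio of 2118 (95% counting interval 380 to 83681), and Psca, a surface antigen of gland epithelia, had 2851 and 2, a ratio of 849 (235 to 7010). Gipc2, a scaffold protein, had 3006 counts in HBs and 3 in livers (ratio 596, 204 to 2894), Wnt6, a Wnt ligand, 2326 and 3 (462, 158 to 2240), and the unnamed gene Gm35546 1185 and 1 (705, 126 to 27886). The ratio was 523 (145 to 4324) for Tbx1, a T-box factor with 2 counts in livers. These intervals cover counting error only. Fgfbp1, which frees fibroblast growth factors from matrix, reached 108, 127, 191, 89.7 and 179 CPM in HBs, against 0 to 0.213 CPM in livers (1121-fold, adjusted p = 4.2e-08). Sftpd, a collectin best known from lung, rose 282-fold, Scube3, a secreted growth factor co-receptor, 404-fold, Fxyd3, a regulator of the sodium pump, 377-fold, Lrtm2 370-fold, Shc2, a signaling adaptor, 278-fold and D630045M09Rik 320-fold.

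The largest falls, by the same rule with at least 10 CPM on average in livers, were of genes with varied roles. Cyp2b10, the classic target of the receptor CAR, was at 0, 0.0380, 0.199, 0.0495 and 0 CPM in HBs, against 22.9, 3.58, 136, 88.3 and 59.2 CPM in livers (log2 -9.85 ± 1.14 SE, and -11.03 without s1800). Hsd17b6, a steroid dehydrogenase, fell 50.6-fold, Ces1e, a carboxylesterase, 41.9-fold, Cyp2c29 37.6-fold and Car3, carbonic anhydrase III, 29.4-fold. Gldc, of glycine cleavage, was at 7.87, 4.07, 4.96, 40.1 and 10.7 CPM in HBs, against 237, 223, 287, 315 and 297 CPM in livers. Sucnr1, the receptor for succinate, fell 36.0-fold and Cyp2u1, higher in male livers, 28.4-fold. For Ces1e, Cyp2c29, Gldc, Car14, Ido2, Mup-ps2 and Mup-ps12 HB s2138 was the highest HB, and without it the log2 fold changes were -6.06, -5.99, -5.28, -6.16, -5.51, -7.23 and -7.19, in place of -5.39, -5.23, -4.33, -4.97, -4.30, -5.80 and -5.48. Cyp26b1, which breaks down retinoic acid, had -4.51, and -3.69 without c12.

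These shifts altered the makeup of the libraries. The 50 genes with the highest mean share took 20.7% ± 2.29 of counts in HBs and 31.4% ± 4.25 in livers (SD, n = 5 each), and all 5 HBs were lower than all 5 livers (p = 0.00794 by a two-sided exact permutation test, the minimum for groups of 5). Alb took 1.52% to 2.28% of counts in HBs, against 3.78% to 8.58% in livers. The genes with the most counts in HBs were led by Trf, at 18245, 18957, 19691, 24975 and 23287 CPM in HBs, against 23939, 23785, 22573, 25963 and 20309 CPM in livers, which did not differ by the test. Clu, clusterin, was among the most counted genes of HBs and rose 3.07-fold, whereas Apoe and Apoa2 fell 2.08-fold and 6.22-fold, and Ahsg, Eef1a1 and C3 did not pass the test.

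The HBs varied among themselves about as much as the livers did. The median SD of log2(CPM + 0.5) over genes was 0.27 in HBs and 0.24 in livers, and 7826 genes had the larger SD in HBs. Across genes, pairs of HBs correlated at 0.939 to 0.983 and pairs of livers at 0.948 to 0.988, against 0.785 to 0.908 between an HB and a liver. The first principal component held 73.2% of the variance and placed the HBs at 78.9, 93.4, 88.1, 39.5 and 55.6 and the livers at -62.8 to -80.8. The second (12.3%) ordered samples by sex within each tissue.

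The HBs also differed among themselves in hepatocyte genes, and the sexes were not spread evenly over that order, since the female HBs s1799 and s1800 lay farthest from the livers on the first component and were lowest in Cps1 and Otc. HBs s2138 and s2139 were nearest to the livers on the first component and had the highest Cps1, Otc, Ftcd and Gldc of the HBs, the lowest mitotic genes and the lowest Npas2 and Arntl. Sds, serine dehydratase, was the extreme case, at 0.728, 2.24, 1.63, 116 and 36.2 CPM in HBs, against 229, 210, 377, 275 and 260 CPM in livers. Its log2 fold change was -3.11 and -4.71 without s2138, and its call (adjusted p = 0.037) was lost without any 1 of s1799, s1800, s2139, c12, c17 and c7. HB s1758 was lowest in Glul, Nkd1, Krt7, Krt4, Spp1, Igf2 and Yap1, but not in Axin2, Ankrd1 or Gpc3. These genes were picked for their level in s1758, and for Glul, Nkd1, Krt7 and Krt4 both female HBs lay above all 3 males. Over the keratin and Wnt lists s1758 lay close to s2138, but not over every list. The mean log2 CPM of the periportal genes was 4.12 in s1758 and 7.21 in s2138, and that of amino acid catabolism 5.80 and 7.26. The mean log2 CPM of the cholangiocyte and progenitor markers was 4.68, 5.43, 5.19, 4.31 and 4.69 in HBs and that of the keratins 4.22, 5.15, 5.16, 4.14 and 4.59, both lowest in s2138, and that of the Wnt list 4.97, 5.61, 5.62, 4.98 and 5.22. Comparing s1758, s1799 and s1800 alone with the livers, a choice made after these values were seen, called 3911 genes higher and 3771 lower.

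**Figure D3:**
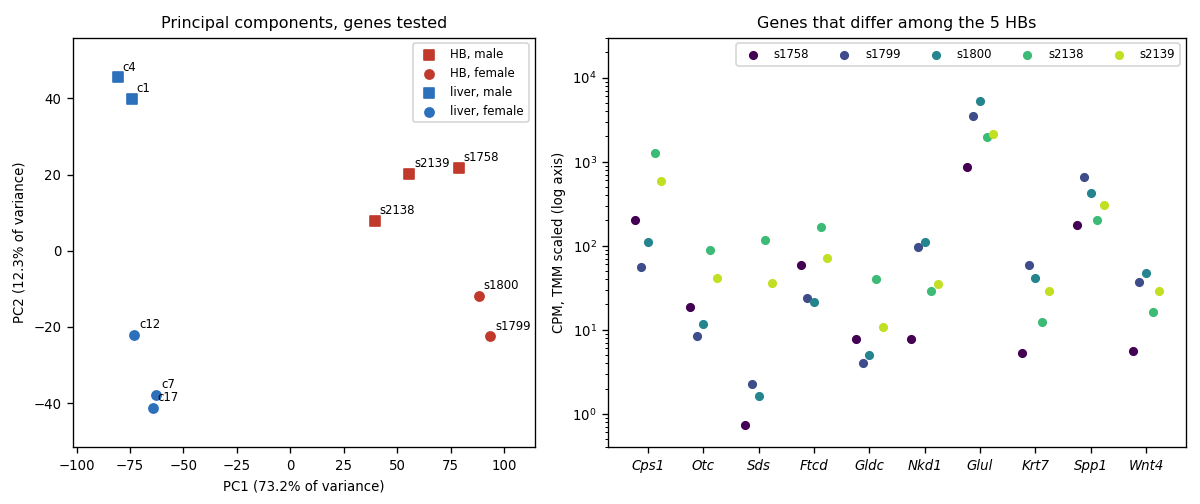
Left, principal components of log2(CPM + 0.5) over the genes tested, with the percent of variance on each axis, HBs in red, livers in blue, squares for males and circles for females; the 5 HBs lie between 39.5 and 93.4 on the first component and the livers at -62.8 or below. Right, CPM on a log axis of 10 genes in each of the 5 HBs (colors), with s2138 and s2139 highest for Cps1, Otc and Sds and s1758 lowest for Nkd1, Glul and Krt7.

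The most variable of the called genes in HBs were Sds, A1bg and the Mups. A1bg, which female liver secretes, was at 0.0910, 23.1, 9.18, 126 and 1.12 CPM in HBs, against 2.18, 5.85, 3348, 5785 and 8814 CPM in livers. Its log2 fold change was -6.81 (adjusted p = 0.023), -8.70 without s2138 and -6.17 without c7, and 3.403 when only males were compared. Mup7 was at 80.0, 1.29, 2.03, 956 and 151 CPM in HBs, against 27145, 45073, 263, 37.4 and 208 CPM in livers, with the same dependence from the male side. Its log2 fold change was -5.93, -7.95 without s2138 and -4.87 without c4. Mup11 and Mup17 had -5.46 and -4.59, -6.77 and -6.64 without s2138, and -4.28 and -3.72 without c4. The calls of Mup7 and Mup11 were lost without any 1 of s1758, s1799, s1800, s2139, c1 and c4, and that of Mup17 without s1758, s2139 or c4.

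Adult mouse liver differs between the sexes because pulsatile growth hormone in males and its steadier release in females drive separate gene sets. The sexes were compared within each tissue in a fit of 4 groups and 14921 genes. In HBs 393 genes (2.63%) were higher and 196 (1.31%) lower in males than in females, and in livers 263 (1.76%) were higher and 213 (1.43%) lower. The count in HBs was 1290 and 584 without s1758 and 15 and 23 without s1799, so it rests on single libraries, and only s1799 and s1800 were female. Both tissues shared 47 male-higher genes (11.96% of those in HBs, 17.9% of those in livers) and 21 male-lower genes (10.7% and 9.86%).

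Lists of known sex-biased liver genes were read in both tissues. Of 24 tested male-biased genes, 13 were male-higher in HBs and 20 in livers, and 3 of them had a smaller difference between sexes in HBs than in livers by the test of that difference. The mean log2 CPM of this list was 5.0002 in male HBs and 2.97 in female HBs, against 8.64 in male livers and 4.47 in female livers. Of 28 female-biased genes, 5 were male-lower in HBs and 24 in livers, and 11 differed between tissues. Their mean was 2.06 in male HBs and 3.42 in female HBs, against 0.94 in male livers and 7.36 in female livers, so that female HBs lay nearer to male livers than to female livers. The direction of HB over liver for the female-biased list depended on sex, with a median of -3.88 in all libraries and 2.74 in males only.

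**Figure D4:**
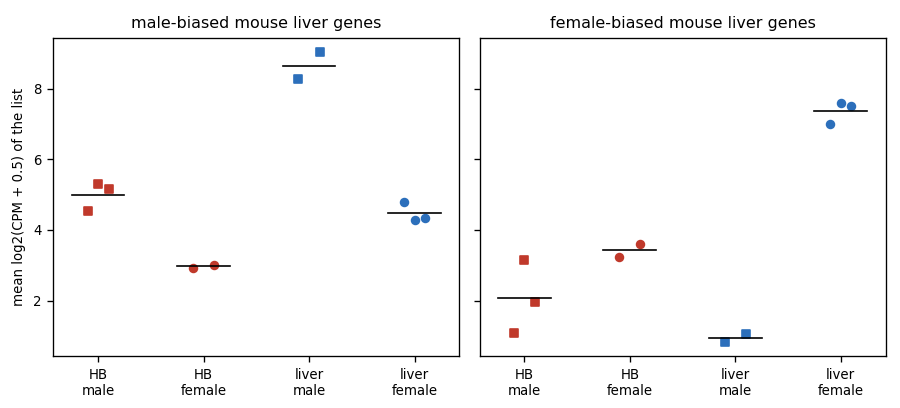
Mean log2(CPM + 0.5) per library of the male-biased (left panel) and female-biased (right panel) liver genes in male and female HBs and male and female livers; each point is a library. In male HBs the female-biased genes averaged 2.06 and in female HBs 3.42, against 0.94 in male livers and 7.36 in female livers.

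Over all genes, the difference between the sexes was itself different between HBs and livers for 87 genes with a higher (0.583%) and 43 with a lower (0.288%) signed log2 value of male over female in HBs. A higher signed value can be a smaller gap between the sexes. Hao2, a peroxisomal hydroxyacid oxidase, was at 1.18, 1.29 and 1.73 CPM in male HBs and 10.3 and 11.4 CPM in female HBs, against 0.234 and 0.262 CPM in male livers and 171, 268 and 206 CPM in female livers (log2 of male over female -2.95 in HBs and -9.73 in livers, difference 6.78 ± 0.45 SE, adjusted p = 1.8e-04). Cspg5, a proteoglycan, was at 1.83 to 2.43 CPM in all HBs, against 20.4 and 20.7 CPM in male livers and 0.569 to 0.836 CPM in female livers. Gcgr, the glucagon receptor, had the wider gap in HBs, with 132, 160 and 126 CPM in male HBs and 25.1 and 28.2 CPM in female HBs, against 297 to 358 CPM in livers of either sex (difference 2.40 ± 0.23 SE, adjusted p = 0.0022). The count of such genes was 8 and 9 without c4 and 582 and 185 without s1758.

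The same contrast could be read in other animals, 5 HBs and 5 livers of mice on a diet with 10% dodecanedioic acid (DDDA) for 3 to 4 weeks, sequenced on other flow cells. Their sexes were split otherwise, with 4 females and 1 male among the DDDA HBs and 2 females and 3 males among the DDDA livers, and the part of sex in the differences between diets was not tested. Of 13415 genes tested there, 3529 (26.3%) were higher and 3144 (23.4%) lower in HBs. Of the genes called higher on the standard diet 2831 were also called higher on DDDA (80.2% of the DDDA list and 72.7% of the standard diet list), and of those called lower 2650 (84.3% and 71.6%), while 1 gene in each direction was called the opposite way. For Ankrd1 the log2 fold change was 9.85 on DDDA and 8.54 on the standard diet, for Phgdh 6.63 and 6.16, for Gpc3 6.43 and 6.42 and for Alb -1.81 and -2.31. Cps1 (-1.74 and -3.54), Hnf4a (-0.67 and -1.01) and Nkd1 (2.25 and 2.63) did not pass the test on DDDA, with adjusted p of 0.074, 0.063 and 0.051. Glul had -0.14 (adjusted p = 0.83) on DDDA, against 1.86 on the standard diet, and Lcn2 1.65 (0.44), against 5.82. In a test of the difference between the diets over 14502 genes, no gene passed in either direction (0% each) with edgeR, while 877 had an unadjusted p under 0.05 and DESeq2 called 8 higher and 4 lower. Diet and flow cell cannot be told apart in that test, and the column headers name trimming of reads for the standard diet libraries only.

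The differences were spread over the genome. The median log2 difference of the genes on a chromosome, for each HB from the mean of the livers, was between -0.16 and 0.29, and for each liver from the mean of the other livers between -0.10 and 0.11. The X chromosome had the highest median in 4 of 5 HBs, with 0.28, 0.17, 0.29, 0.06 and 0.16 in HBs, against -0.04 to 0.05 in livers. Of its 414 tested genes 35.02% rose and 17.9% fell, against 28.2% and 26.8% of all genes tested. With every gene that had a count, chromosome medians were nearly all 0 and the X was at 0 to 0.08 in HBs, against -0.04 to 0 in livers.

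**Figure D5:**
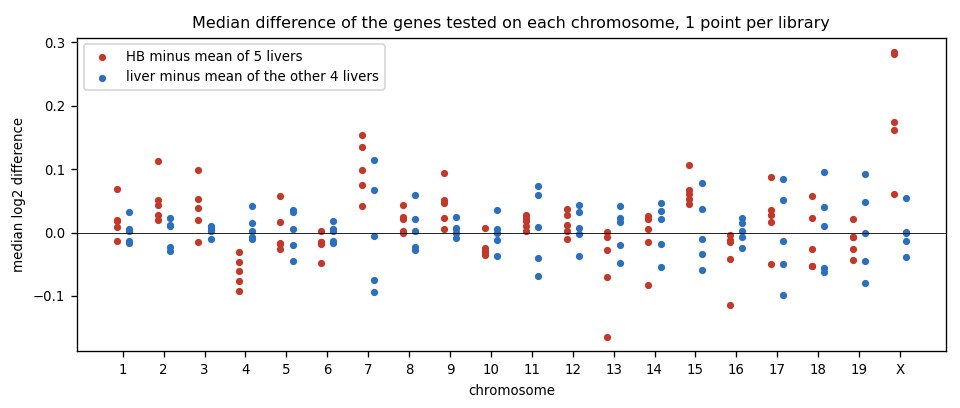
Median log2 difference (y axis) of the tested genes on each chromosome (x axis), for each of 5 HBs from the mean of the livers (red) and each of 5 livers from the mean of the other livers (blue). The X chromosome has the highest HB values, up to 0.29, while liver values stay between -0.10 and 0.11.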

How the data were processed

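RNA from whole HBs and livers was extracted on columns, treated with DNase, selected by oligo(dT) and sequenced in read pairs. The authors deposited 1 table of read counts per gene for 20 libraries, made, per the submitters' processing notes, against GRCm38.p6. The headers of its columns name trimming of reads for the standard diet libraries and not for the DDDA libraries. The study's methods name a directional library kit. The aligner's settings, and whether the counting used strand, were not given in the sources used here. The deposited counts were not normalized. The TPM values, also deposited by the authors, were used only to compare levels between genes. Further columns of that table hold other normalized values and the authors' own fold changes and p-values, and were not used.

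Libraries were grouped by the labels of tissue and diet, which name separate animals. Counts were filtered with filterByExpr, scaled by TMM and tested with edgeR's quasi-likelihood F-test (edgeR 4.0.16, R 4.3.3) with Benjamini-Hochberg adjustment at 0.05 over all genes tested. CPM values are TMM-scaled, and log2 values of CPM carry a pseudocount of 0.5. The sexes were compared in 1 fit of tissue and sex, and the diets in 1 fit of the 20 libraries. Lists held 1530 entries, of which 1522 matched the table. Genes named were the vector genes, the 15 largest rises and falls among called genes with non-overlapping groups and at least 10 CPM in the higher group, up to 4 members of each list with the smallest p and up to 2 called against its direction, the 10 most counted per group, the 5 most variable and the 5 leading genes of each sex test. Others, such as Hnf4a, Cps1, Sp5, Nkd1, Cyr61, Ctgf, Myc, Afp, H19, Krt7, Krt8 and Krt18, were added by choice. The members and lists were chosen with earlier results of these data known. The tests were checked on simulated counts. Alternatives were DESeq2 1.42.0, other scalings, no filter, sex as a covariate, each sex alone, all libraries in 1 fit and each library left out in turn. Figures were drawn with matplotlib 3.10.9, and p-values and intervals computed with scipy 1.17.1. Near-identical genes (Mup, Serpina1, Serpina3, Cyp2c, Cyp3a, Sult2a and Ces1 families) may share reads.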

Additional observations from a re-analysis of the deposited data

Results flagged for a closer look

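Of 441 groups of 5 libraries tested for 1 value far from the rest, 22 had one, close to the 1 in 20 that chance gives. Among HBs, s1758 was low in Ces1d (98.8 CPM, others 191 to 241) and high in Scd2 (128 CPM, others 14.1 to 22.9), s2139 was high in Bhlhe40 (112 CPM, others 64.1 to 69.0), and s1800 in Cyp2b10 (0.199 CPM, others 0 to 0.0495). HB s2138 was low in Epcam (30.7 CPM, others 58.2 to 72.9) and high in S100a8 (3.91 CPM, others 1.14 to 1.496), Mup-ps2 (1.49 CPM, others 0.0397 to 0.190) and Mup-ps12 (2.08 CPM, others 0.0397 to 0.327). Among livers, c1 was low in Ctgf (2.34 CPM, others 4.84 to 5.57), Gata6 (10.7 CPM, others 12.6 to 13.3), Ivd (255 CPM, others 319 to 339), Tpi1 (501 CPM, others 624.99 to 647), Gpx3 (1.48 CPM, others 3.23 to 4.05) and Tek (15.4 CPM, others 16.5 to 16.9), and had the only count of Gm35546 (0.0780 CPM, others 0). Liver c7 was low in Cp (1086 CPM, others 1203 to 1249) and Cyp2c29 (1151 CPM, others 2180 to 2361), and c12 high in Col4a5 (3.48 CPM, others 1.33 to 1.66). Liver c17 was high in Itgb4 (2.92 CPM, others 1.57 to 1.83) and Col4a4 (1.85 CPM, others 0.253 to 0.348), had the only count of Pla2g5 (0.0711 CPM, others 0), and was at 0 CPM for Airn, where the others were at 0.0633 to 0.0872.

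The log2 value of male over female was itself different between HBs and livers by the edgeR test of that difference for 87 genes in one direction and 43 in the other, of which 6 are given here. For 5 of these the gap between the sexes was smaller in HBs. It was -2.95 in HBs and -9.73 in livers for Hao2 (HBs minus livers 6.78, adjusted p = 1.8e-04), -0.43 and -7.18 for the transporter Slc22a27 (6.75, adjusted p = 1.8e-04), and -0.61 and -4.56 for Nt5e, the ectonucleotidase CD73 (3.95, adjusted p = 0.0022). It was 0.21 in HBs and 4.86 in livers for Cspg5 (-4.65, adjusted p = 2.2e-04), and 1.11 and 2.64 for Arsa, arylsulfatase A (-1.54, adjusted p = 0.0046). For Gcgr the gap was larger in HBs, at 2.38 in HBs and -0.02 in livers (2.40, adjusted p = 0.0022). Nt5e was at 30.8, 18.1 and 25.3 CPM in male HBs and 30.6 and 45.0 CPM in female HBs, against 3.59 and 3.75 CPM in male livers and 76.2, 80.7 and 103 CPM in female livers.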

How the results depend on the processing

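The 221 genes given with values were recomputed under 21 settings, and 4494 of 4641 values kept their direction and side of the threshold, 124 lost their call, 15 gained one and 8 changed direction. With RLE factors, or with every gene that had a count, all 221 kept both. On the standard diet, total counts alone called 8776 genes higher and 1299 lower, and TREAT called 1556 and 833. With total counts the log2 fold changes of Dock5 (0.13), Ccnd3 (0.11), Bysl (0.085), Krt10 (0.040), Trf (0.53), Apoa1 (0.67) and Fgb (0.62) turned positive, and in males only that of A1bg was 3.403. Between diets DESeq2 called 8 higher and 4 lower, and with a library left out edgeR called 0 to 1 in each direction. Male over female in HBs gave 976 higher and 525 lower with DESeq2, 683 and 381 with no filter, and 15 to 1290 and 22 to 584 with a library left out. The same in livers gave 551 and 455, 414 and 399, and 92 to 447 and 50 to 305. For the difference of HBs minus livers these were 372 and 243, 285 and 125, and 8 to 582 and 9 to 185. Counts in livers were lowest without c4 and highest without c12. No paired analysis was possible because HBs and livers came from animals with different numbers. Depth limits genes near 0 in livers, where ratios carry wide intervals.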

Other observations

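Lists written after values of these data were seen are given as values only. Of 34 targets of the integrated stress response, which raises amino acid supply under stress, 21 rose in HBs and 1 fell, with a median log2 fold change of 1.52, against 28.2% and 26.8% of all genes tested and a median of 0.02. The list shares Phgdh, Psat1 and Slc7a11 with lists described above. Asns, asparagine synthetase, was at 16.8, 18.6, 20.2, 9.11 and 14.5 CPM in HBs, against 0.234, 1.40, 0.348, 0.569 and 0.633 CPM in livers (25.2-fold), and the hormone Fgf21 rose 12.6-fold. Shmt2, the member that fell, was at 53.2 to 91.9 CPM in HBs, against 231 to 251.3 CPM in livers. Atf4 itself, the factor of this response, did not pass the test.

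Of 9 Wnt ligands tested, Wnt4, Wnt6, Wnt7b and Wnt9a rose and Wnt2, Wnt5b and Wnt9b fell. Wnt4 was at 5.64, 36.9, 47.5, 16.1 and 29.2 CPM in HBs, against 3.28, 1.75, 4.88, 2.56 and 2.91 CPM in livers, lowest in s1758, which was also the lowest HB in Nkd1 and Glul. Of 18 chemokines 8 rose and 2 fell. Cx3cl1, the ligand of Cx3cr1, rose 14.9-fold and Ccl17, with no count in any liver, was at least 32.3-fold higher with a floor of 3 counts over the livers, while Cxcl12 fell 3.11-fold. In the TGF-β, activin and BMP pathway 12 of 34 rose and 10 fell. Tgfb2 rose 24.2-fold and Fstl3, an activin antagonist, 81.0-fold, and Gdf2, which encodes BMP9, fell 4.12-fold beside Hamp, a target of BMP signaling.

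Of 32 solute carriers and ABC transporters 21 fell and 5 rose, with the manganese exporter Slc30a10 6.65-fold and the iron exporter Slc40a1 2.48-fold lower, and Abcb1b and Abcc5 11.97-fold and 6.66-fold higher. Of 23 genes of retinol handling 17 fell and 2 rose, among them Rdh9, a retinol dehydrogenase (3.70-fold higher). Of 28 heat shock and unfolded protein response genes 4 rose and 6 fell, and 8 rose without c7.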
